A study of Mus musculus with 10 samples.

Results

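The 8 genes described here, Adgrf5, Adgrl1, Adgrl2, Adgrl3, Adgrl4, Adgrg1, Adgrg3 and Adgre5, encode adhesion G protein coupled receptors. They were chosen by name among the 24538 genes of the count tables, and all 8 passed the filter on low counts. RNA was sequenced from sorted CD31+/CD45- cells of 10 samples, 5 from normal lung and 5 from lung metastases. All mice were C57BL6/J with the genotype given as wild type and an age tag of 8 to 10 weeks. For the metastases, females 6 to 8 weeks old received E0771-LG cells, a line of syngeneic mouse mammary tumour cells, by tail vein. Nodules under 1 mm across were dissected and pooled from 2 to 4 mice, while normal lungs were processed alongside. The question is how these receptor transcripts differ between vessel-lining cells of metastases and of normal lung.

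Adhesion receptors carry a long extracellular part joined to a bundle of membrane-spanning helices. In most of them a GAIN domain cuts the protein in itself, and exposure of the new end, the tethered agonist, activates G proteins. Adgrf5, also called GPR116, is a receptor of lung alveolar cells and endothelium that restrains surfactant. Adgrl4, also called ELTD1, is an endothelial receptor linked to vessel growth. Adgrl1 to Adgrl3 are the latrophilins, which bind teneurins and FLRT proteins across cell contacts. Adgrg1, or GPR56, binds type III collagen. Adgrg3, or GPR97, is best known from granulocytes. Adgre5, or CD97, is a leukocyte receptor of CD55.

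Counts assigned to genes ranged from 41004704 to 79710581 in the normal libraries and from 21677429 to 54266459 in the metastasis libraries. Of 19 endothelial marker genes 16 fell in metastases, with a median log2 fold change of -2.43. Erg, Ramp2 and Vwf were the other 3, at -1.21, -1.37 and -0.01. The median level of these 19 genes in metastasis libraries 1 to 5 was 31.8, 22.2, 19.3, 8.66 and 7.37% of the normal lung mean. Cdh5, the adhesion protein of endothelial junctions, was at 3845 to 9410 CPM (counts scaled to a common library size) in normal lung and at 304 to 2342 CPM in metastases, and none of the 19 was at 0 in every library. Some markers of other cells were higher in the metastasis libraries. The summed level of 8 macrophage genes was 46.5 to 211 CPM in normal lung and 911 to 1795 CPM in metastases, with 4 of 7 tested genes higher. That of 6 fibroblast genes was 6.08 to 59.1 and 323 to 906 CPM, with 5 of 5 higher. That of 6 neutrophil genes was 0.367 to 2.45 and 40.6 to 79.2 CPM, with 3 of 3 higher and Mpo at 0 throughout. In 6 tumour epithelium genes the sums were 1.08 to 13.2 and 9.68 to 54.0 CPM, with 1 of 2 higher, the keratin Krt8. Libraries 1 and 2 of each group held more of the ribosomal precursor Rn45s than libraries 3 to 5, at 2.83 to 3.51% against 0.408 to 0.469% of counts in normal lung and 1.45 to 4.61% against 0.647 to 1.24% in metastases, so values within either set are given below where a call or a size changed. In such bulk samples fewer cells of a type and less RNA per cell cannot be told apart, and the part of these cells in the values below was not tested.

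Promoter sequences are shown for the 3 fallen receptor genes that followed each other most closely across libraries, Adgrf5, Adgrl4 and Adgrl2. The RefSeq table (GRCm38.p6) held entries for 7 of the 8 genes, at 11 start sites, and none was matched for Adgre5. The 250 bases before each start site are printed 5′ to 3′ on the gene's strand. The Adgrl2 site and the second Adgrf5 site lie inside the genes as placed by GENCODE M21, whose 5′ ends are at 148990555 and 43360451. The sequence before that 5′ end of Adgrl2 is not shown. Capitals mark GGAAG or its reverse complement CTTCC, searched on both strands with overlaps counted. GGAAG is a longer form of the GGAA core recognised by ETS transcription factors such as Erg, and is also part of many other sequences. GGAA followed by another base is not marked or counted.
Adgrf5, first start site, chr17:43360181-43360430, plus strand: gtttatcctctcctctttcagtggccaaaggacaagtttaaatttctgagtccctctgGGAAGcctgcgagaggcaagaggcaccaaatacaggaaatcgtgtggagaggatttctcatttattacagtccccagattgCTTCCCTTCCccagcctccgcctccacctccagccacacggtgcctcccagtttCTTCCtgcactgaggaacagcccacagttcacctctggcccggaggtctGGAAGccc
Adgrf5, second start site, chr17:43389216-43389465, plus strand: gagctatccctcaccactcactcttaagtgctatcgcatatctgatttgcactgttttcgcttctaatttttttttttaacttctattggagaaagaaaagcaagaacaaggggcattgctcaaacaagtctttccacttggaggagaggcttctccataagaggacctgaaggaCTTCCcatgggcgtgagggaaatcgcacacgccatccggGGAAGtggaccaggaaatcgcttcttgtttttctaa
Adgrl4, chr3:151437632-151437881, plus strand: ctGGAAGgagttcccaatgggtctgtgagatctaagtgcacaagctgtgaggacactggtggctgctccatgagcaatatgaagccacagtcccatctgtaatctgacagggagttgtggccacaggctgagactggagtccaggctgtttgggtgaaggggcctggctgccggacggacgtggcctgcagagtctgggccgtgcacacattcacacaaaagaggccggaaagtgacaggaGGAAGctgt
Adgrl2, chr3:148954636-148954885, minus strand: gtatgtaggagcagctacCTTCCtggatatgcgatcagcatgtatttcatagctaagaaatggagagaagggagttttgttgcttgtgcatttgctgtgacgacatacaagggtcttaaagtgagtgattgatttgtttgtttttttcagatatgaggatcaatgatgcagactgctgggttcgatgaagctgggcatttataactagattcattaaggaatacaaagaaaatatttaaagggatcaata

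Adgrf5 held 5 matches before its first start site and 2 before its second, Adgrl4 held 2 and Adgrl2 held 1. At least 1 match was present at 8 of the 11 member start sites and in 64.1% of all 32851 promoters of the table, where the median was 1. Only 0.965% of all promoters held 5 or more, and the first site of Adgrf5 is the highest of the 11 member sites. Adgrl3, which fell, held 0, 1 and 2 matches before its start sites 1, 2 and 3. Of the genes that did not fall, Adgrg3 held 2 matches, Adgrl1 held 1 and both start sites of Adgrg1 held 0. These counts are descriptions of sequence and were not tested against the expression values.

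Adgrf5 was the most abundant of the 8 receptors in normal lung by median FPKM, although above Adgre5 in only 3 of 5 libraries. It fell in metastases. The gene lies on chromosome 17 from 43360451 to 43459557 (GRCm38). Its level in normal lung libraries 1 to 5 was 13753, 9707, 16719, 13040 and 15661 CPM. In metastasis libraries 1 to 5 it was 6206, 1630, 6813, 1129 and 918 CPM. The groups did not overlap, and metastasis libraries 1 and 3 lay well above the other 3. The mean went from 13776 ± 2707 to 3339 ± 2914 CPM (SD, n = 5 each), a 4.13-fold fall (log2 fold change -2.04 ± 0.48 SE, adjusted p = 0.0036). Throughout, ± after a level is the SD of 5 libraries and ± after a log2 fold change, metastases minus normal lung, is its SE. Adjusted p is that of edgeR's quasi-likelihood test with Benjamini-Hochberg adjustment over 11823 genes, and a gene rose or fell only where it was under 0.05. Within libraries 1 and 2 alone the difference was -1.56 (edgeR adjusted p = 0.131), and within libraries 3 to 5 alone it was -2.38 (0.0259).

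**Figure D1:**
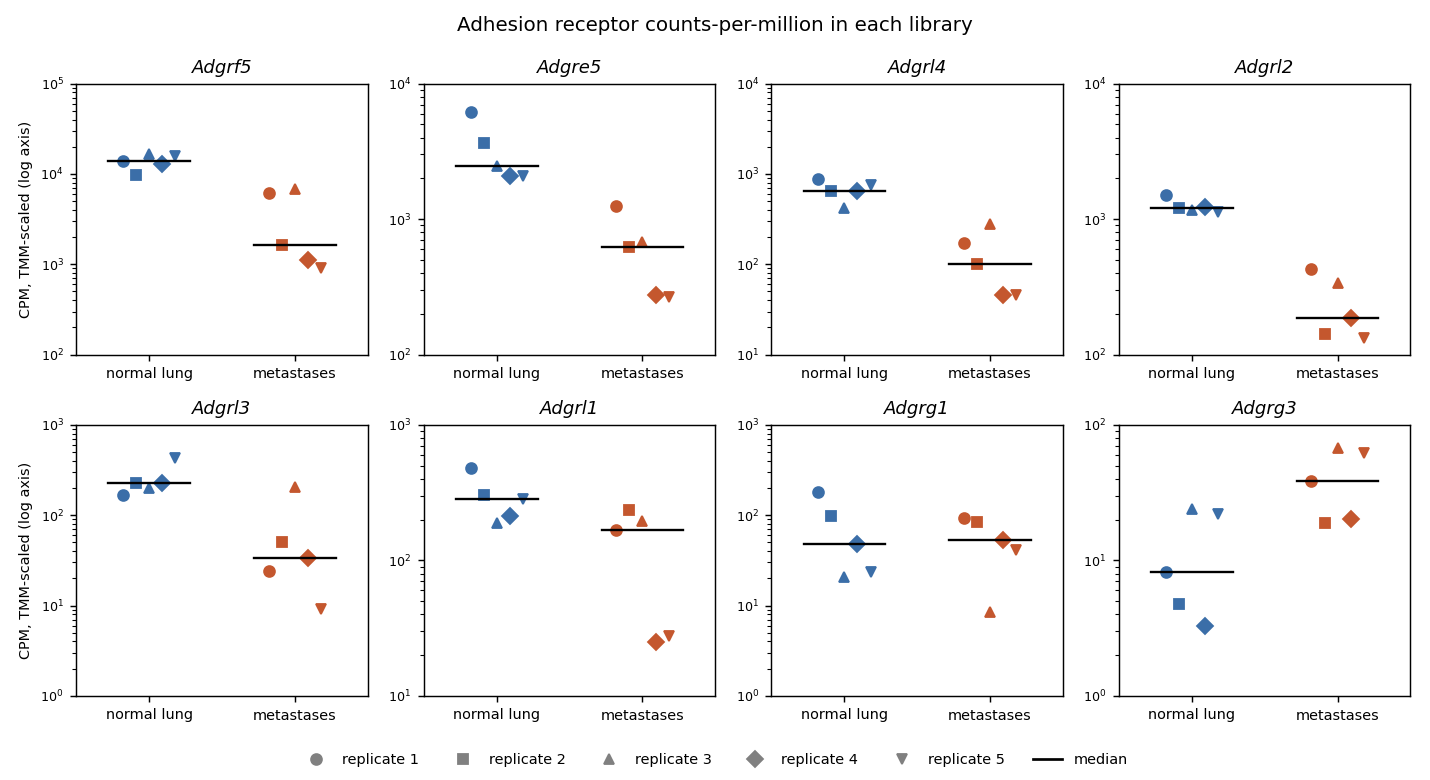
Level of each receptor gene in CPM on a log axis for 5 normal lung libraries (blue) and 5 metastasis libraries (orange). Symbols give the replicate number and lines the median. The groups do not overlap for Adgrf5, Adgre5, Adgrl4 and Adgrl2, and they overlap for the other 4 genes.

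Of the 8 receptor genes 5 fell and none rose, where 20.2% of all 11823 tested genes passed, 8.22% lower and 12.0% higher. The fallen genes were Adgrf5, Adgre5, Adgrl4, Adgrl2 and Adgrl3. The median log2 fold change was -2.00 over the 8 and 0.06 over all tested genes. In 4 of the 8 genes every metastasis library lay below every normal library, against 6.17% of all tested genes, and in none did every one lie above, against 8.50%.

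Adgrl4 (chromosome 3, 151437887 to 151545086) was at 875, 649, 421, 641 and 763 CPM in normal lung and at 171, 101, 279, 45.1 and 45.7 CPM in metastases, in library order. Every metastasis library lay below the lowest normal library, and libraries 4 and 5 were the lowest. The mean went from 670 ± 169 to 128 ± 98.6 CPM, a 5.22-fold fall (-2.39 ± 0.47, adjusted p = 0.00087). Of the 8 genes this is the one best known as specific to endothelium. Its level in metastasis libraries 1 to 5 was 25.5, 15.1, 41.6, 6.74 and 6.83% of the normal mean, beside 31.8, 22.2, 19.3, 8.66 and 7.37% for the median endothelial marker. The 2 series have the same libraries, 4 and 5, at the bottom, and library 3 was the highest for Adgrl4 but not for the markers.

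Adgrl2, latrophilin 2 (chromosome 3, 148815583 to 148990555), lies 2447331 bases from Adgrl4 with no protein-coding gene between them in GENCODE M21. Its level in normal lung had the smallest SD relative to its mean of the 8, at 1499, 1206, 1168, 1235 and 1129 CPM. In metastases it was 431, 141, 337, 187 and 132 CPM, so all 5 libraries were lower than all normal ones. The mean went from 1247 ± 146 to 246 ± 132 CPM, a 5.08-fold fall (-2.34 ± 0.39, adjusted p = 0.000146). It passed within libraries 1 and 2 alone (-2.22) and within libraries 3 to 5 alone (-2.45).

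Adgrl3, latrophilin 3 (chromosome 5, 81020138 to 81825133), was lower in 4 of the 5 metastasis libraries. Normal lung was at 167, 227, 199, 227 and 432 CPM, and metastases at 24.2, 50.9, 206, 33.8 and 9.10 CPM. Metastasis library 3 reached the normal range, which made the groups overlap. The mean went from 250.4 ± 105 to 64.9 ± 80.6 CPM (3.86-fold, -1.95 ± 0.62, adjusted p = 0.0261). Without metastasis library 3 the value was -3.13 (edgeR adjusted p = 0.000206). The call was lost without normal lung library 5 (0.0778) or without metastasis libraries 1 (0.0543), 2 (0.0567) or 4 (0.0604), with edgeR under RLE scaling (0.0556) and with DESeq2 (adjusted p = 0.0695). Within libraries 1 and 2 alone the difference was -2.37 (edgeR adjusted p = 0.0978) and within libraries 3 to 5 alone -1.80 (0.176). Of its exons 1582 bases are shared with the antisense gene Gm16054, and 202 bases of Adgrl2 with the antisense gene Gm43573. Reads of the 2 strands cannot be told apart where strand was not used in counting, and the setting is not known here.

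Adgrl1, latrophilin 1 (chromosome 8, 83900105 to 83941954), did not pass. Its level was 481, 303, 189, 214 and 283 CPM in normal lung and 167, 235, 195, 25.2 and 27.7 CPM in metastases. Metastasis libraries 1 to 3 lay near or inside the normal range, and libraries 4 and 5 far below it. The difference was -1.18 ± 0.54 (edgeR adjusted p = 0.13, unadjusted p = 0.0386). The approximate 95% interval, from -2.42 to 0.06, is wider than that test implies. The deposited FPKM values are scaled by transcript length and depth. On them limma placed Adgrl1 at -1.68 on the log2(FPKM + 1) scale (adjusted p = 0.0474). Part of its exons, 1107 bases, is shared with Gm10644 on the opposite strand.

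Among the 4 L-type genes the order of levels per length was Adgrl2, Adgrl4, Adgrl1 and Adgrl3 by median FPKM in normal lung, at 165, 127, 51.1 and 34.5. Each was above the next in all 5 normal libraries, although the ranges of neighbours overlapped between libraries. In metastases the medians were 22.3 for Adgrl2, 15.7 for Adgrl4, 31.4 for Adgrl1 and 3.85 FPKM for Adgrl3. There all neighbouring ranges overlapped. Adgrl1 made up a median of 16.0% of the FPKM of these 4 genes in normal lung and 20.0% in metastases, Adgrl2 44.2 and 38.7%, Adgrl3 10.5 and 10.2% and Adgrl4 30.5 and 22.5%. Again each pair of ranges overlapped.

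The log2 ratio of 2 receptors within a library cancels the scaling of libraries, apart from the small prior count, and it was compared between groups for 9 pairs with exact permutation tests, two-sided, for which 0.00794 is the smallest possible p. The ratio of Adgrl1 to Adgrl4 was -1.23 ± 0.28 in normal lung and -0.18 ± 0.84 in metastases (exact permutation p = 0.00794, adjusted 0.0714 over the 9 pairs). All 5 metastasis libraries lay above all normal libraries in that ratio, the nearest at -0.842 and -0.864, but the test did not pass after adjustment. It could not have passed alone, because the smallest possible p in a single pair of the 9 adjusts to 0.0714. The ratio of Adgrl2 to Adgrl4 was 0.93 ± 0.34 and 1.13 ± 0.74 (exact permutation p = 0.595, adjusted 0.893). That of Adgrf5 to Adgrl4 was 4.38 ± 0.56 and 4.56 ± 0.43 (exact permutation p = 0.563, adjusted 0.893), and that of Adgre5 to Adgrl4 was 2.20 ± 0.59 and 2.39 ± 0.63 (0.73, adjusted 0.929). The other 5 pairs had adjusted p of 0.536 to 0.929. That no pair passed does not show that the ratios were alike.

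**Figure D2:**
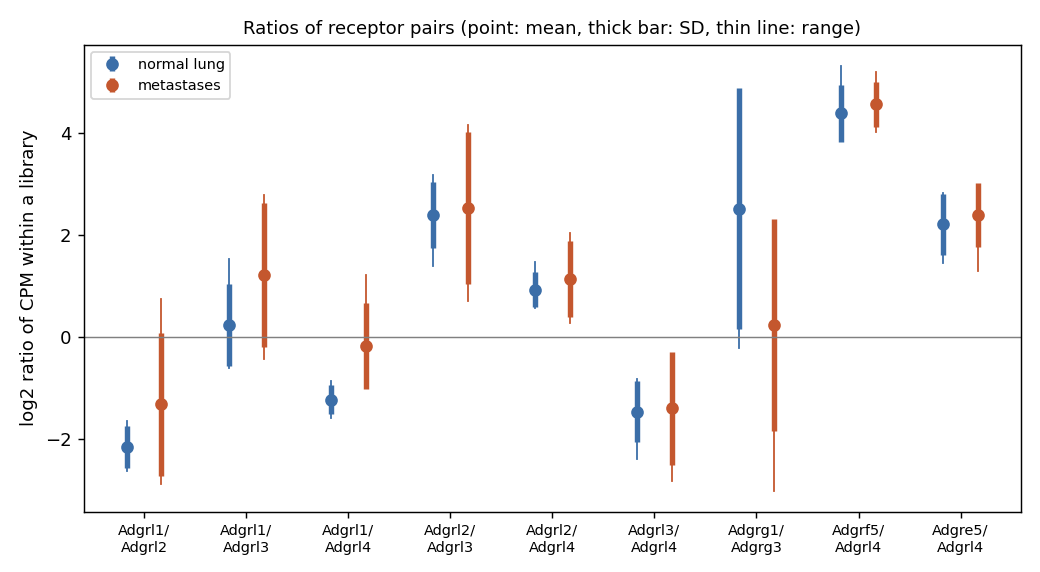
Log2 ratio of CPM within a library for 9 receptor pairs in normal lung (blue) and metastases (orange), with points for means, thick bars for 1 SD and thin lines for the range over 5 libraries. The Adgrl1 to Adgrl4 ratio does not overlap between groups, and the ratios of Adgrf5, Adgre5 and Adgrl2 to Adgrl4 differ by 0.18 to 0.20 between the group means.

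Adgre5 (chromosome 8, 83723251 to 83741326) was the second most abundant of the receptors by median FPKM in normal lung and fell in metastases. Normal lung was at 6208, 3640, 2475, 2091 and 2081 CPM, and metastases at 1239, 621, 679, 278 and 267 CPM. The groups did not overlap, and library 1 was the highest in each. The mean went from 3299 ± 1747 to 617 ± 396 CPM, a 5.35-fold fall (-2.42 ± 0.45, adjusted p = 0.000444). The macrophage and neutrophil marker sums, from leukocytes in which CD97 is known, were higher in these same metastasis libraries. The part of such cells, or of endothelial cells, in the Adgre5 values was not tested. In GENCODE M21, 895 bases of its exons are shared with Ddx39 on the opposite strand, a helicase gene whose own counts came to 100.0 ± 33.1 CPM in normal lung and 82.4 ± 64.2 CPM in metastases. Cd55, its complement-regulating ligand, was at 4.56 ± 5.47 and 3.46 ± 3.43 CPM (-0.40 ± 1.38, adjusted p = 0.881).

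Adgrf5 and Adgre5 stood apart from the other 6 receptors per length. Their medians in normal lung were 1557 and 1196 FPKM, which rank 15 and 21 among 24460 genes, and the lowest of either, 991 FPKM, was above the highest of the next gene, Adgrl2, at 185 FPKM. The ranges of the 2 overlapped, with Adgrf5 above Adgre5 in 3 of 5 libraries. Together they made up 84.5 to 90.5% of the FPKM of the 8 genes in normal lung and 72.5 to 86.9% in metastases. In metastases the medians were 146 FPKM for Adgrf5 and 191 FPKM for Adgre5, and Adgre5 was above Adgrf5 in 2 of 5 libraries by FPKM. The lowest levels per length in normal lung were those of Adgrg1, with a median of 29.0 FPKM, and Adgrg3, with 3.87 FPKM, below the 4 L-type genes. In metastases the order by median after Adgre5 and Adgrf5 was Adgrl1, Adgrg3 (26.9 FPKM), Adgrg1 (24.1 FPKM), Adgrl2, Adgrl4 and Adgrl3. Neighbours among these 6 overlapped in range in both groups.

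Adgrg1 and Adgrg3 are neighbours on chromosome 8, 94974751 to 95014217 and 95017692 to 95045250, with 3474 bases between them, and neither passed. Adgrg1 was at 182, 98.6, 20.5, 48.6 and 23.6 CPM in normal lung and at 92.7, 84.1, 8.39, 53.3 and 40.7 CPM in metastases. Library 3 was the lowest in each group, and normal libraries 1 and 2 were the highest of all 10. The difference was -0.42 ± 0.69 (adjusted p = 0.728), with an approximate 95% interval from -2.01 to 1.17, and it was 0.19 without normal lung library 1. Within libraries 1 and 2 alone it was -0.65 (edgeR adjusted p = 0.723) and within libraries 3 to 5 alone 0.13 (0.936). Adgrg1 was higher in libraries 1 and 2 of both groups, as was the share of Rn45s, whose part in these values was not tested.

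Adgrg3 was the only one of the 8 with a positive value. It was at 8.16, 4.76, 23.7, 3.29 and 22.1 CPM in normal lung and at 38.7, 18.8, 67.7, 20.3 and 62.0 CPM in metastases. Metastasis libraries 1, 3 and 5 were above all normal libraries, and libraries 2 and 4 lay inside the normal range. The mean was 12.4 ± 9.79 and 41.5 ± 22.8 CPM (1.74 ± 0.82, edgeR adjusted p = 0.145, unadjusted p = 0.044). The approximate 95% interval, from -0.15 to 3.63, is wider than that test implies. DESeq2 placed Adgrg3 at 1.81 (adjusted p = 0.0409). The 3 tested neutrophil markers, S100a8, Csf3r and Cxcr2, rose by 6.80, 5.22 and 6.22 on the log2 scale in the same comparison (edgeR adjusted p = 0.00311, 0.00511 and 0.00228). In metastasis library 3, where Adgrg3 was highest, S100a8 was also at its highest, 54.1 CPM against 2.40 to 7.11 CPM in the other 4. Csf3r was at 24.9 CPM there, within its range of 9.06 to 29.7 CPM over the metastasis libraries, and Cxcr2 at 0.248 CPM, its lowest. Of the 3 not tested, Ly6g, S100a9 and Mpo had no counts in that library. The part of such cells in the Adgrg3 values was not tested. The ratio of Adgrg1 to Adgrg3 within a library was 2.52 ± 2.36 and 0.24 ± 2.08 on the log2 scale (exact permutation p = 0.127, adjusted 0.536).

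**Figure D3:**
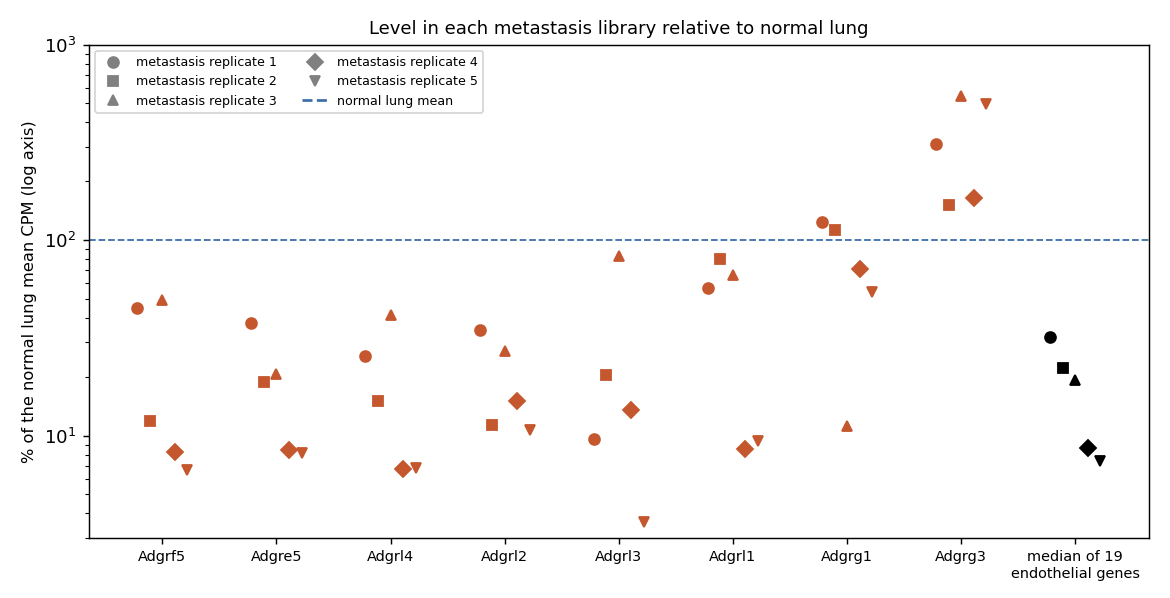
Level of each receptor gene in 5 metastasis libraries (symbols) as a percentage of the normal lung mean, on a log axis, beside the median of 19 endothelial genes in black. Adgre5 runs from 8.10 to 37.6% beside 7.37 to 31.8% for the endothelial median, and Adgrg3 lies at 151 to 545%.

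The metastasis levels were also set against the endothelial marker genes. Adgre5 was at 37.6, 18.8, 20.6, 8.41 and 8.10% of its normal mean in libraries 1 to 5, close to the endothelial median in each. Adgrf5 was at 45.1, 11.8, 49.5, 8.20 and 6.66%, and Adgrl2 at 34.6, 11.3, 27.0, 15.0 and 10.6%. Adgrl3 was at 9.65, 20.3, 82.5, 13.5 and 3.63%, and Adgrl1 at 56.8, 79.9, 66.4, 8.56 and 9.42%. Libraries were also scaled to the summed counts of the 19 endothelial genes, a sum in which Cdh5 and Kdr weigh most. Their normal lung means, 5519 and 2487 CPM, were the largest of the 19. With this scaling the 5 fallen receptors lay between -0.28 (Adgrl4) and 0.051 (Adgrl3) and none passed. With that scaling the median of all tested genes was 2.62, Adgrl1 was at 0.81 (edgeR adjusted p = 0.267), Adgrg1 at 2.29 (0.0215) and Adgrg3 at 4.36 (0.000748). Relative to endothelial transcripts, Adgrg1 was higher in metastases by less than the median gene and Adgrg3 by more.

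**Figure D4:**
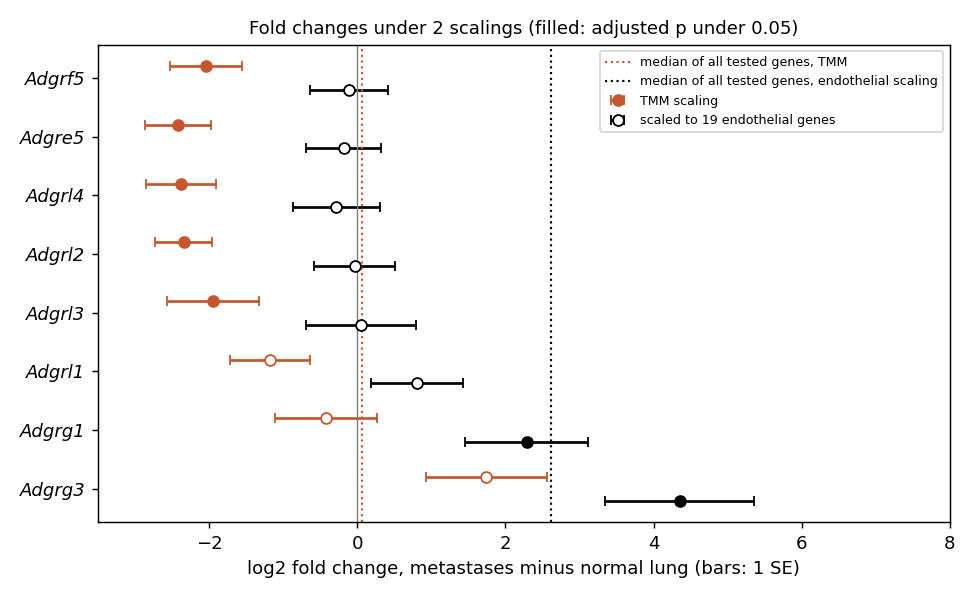
Log2 fold change of each receptor gene, metastases minus normal lung, with bars of 1 SE. Orange is the main scaling, and black has libraries scaled to the summed counts of 19 endothelial genes. Filled points have an adjusted p under 0.05 and dotted lines mark the median of all tested genes, 0.06 and 2.62. The 5 fallen receptors lie between -0.28 and 0.051 under endothelial scaling.

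Genes whose log2 CPM ran most parallel to each receptor over the 10 libraries were found by Pearson correlation, as a description over libraries that share the group difference. Adgrf5 ran closest to Sdpr, a caveolar protein gene also called Cavin2 (0.995), Sema6a, a semaphorin (0.994), and Cd36, a fatty acid transporter of capillaries (0.994), and within groups these 3 values were 0.985 to 0.990. Adgrl2 ran closest to Apln, the apelin peptide gene (0.989), Nfib, a transcription factor (0.987), and Mtus1 (0.986). Adgrl4 ran closest to Myo6, a myosin (0.984), Mcc (0.981) and Tspan7, a tetraspanin (0.980). For Adgre5 the closest were Slc50a1, a sugar transporter (0.985), Tbx3, a transcription factor (0.983), and Rnf144a (0.982). Adgrl1 ran closest to Endod1, Clic4, a chloride channel protein, and Pde3a, a phosphodiesterase (0.981, 0.970 and 0.966). Adgrl3 ran closest to Gimap5, a GTPase gene, Trp53inp1 and Nsmf (0.961, 0.960 and 0.954). The closest to Adgrg1 were Kptn, Sufu and Scap (0.949, 0.933 and 0.930), and to Adgrg3 Vma21, Rnft1 and Nadk2 (0.951, 0.932 and 0.927).

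Among the receptors themselves, Adgrf5 and Adgrl4 had a correlation of 0.957 over the 10 libraries and 0.864 after the group means were removed. The values were 0.946 and 0.879 for Adgrf5 and Adgrl2, and 0.945 and 0.757 for Adgrl2 and Adgrl4. Adgrg1 and Adgrg3 ran opposite to each other, at -0.53 and -0.63. With the mean of the 19 endothelial genes Adgre5 had a correlation of 0.989, and 0.966 after the group means were removed. Adgrl3 had 0.772 and 0.269.

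Most of the rest of the receptor family did not pass the filter on low counts. In normal lung, however, Adgra3, Adgrg6 and Adgra2 had means of 105, 56.2 and 34.1 CPM, beside 12.4 CPM for Adgrg3. CPM is not scaled by transcript length, so it does not rank genes. Per length Adgra3 was at 7.77 to 37.0 FPKM, Adgra2 at 1.04 to 15.8 and Adgrg6 at 2.68 to 10.6. Each range overlapped that of Adgrg3, at 2.25 to 15.2 FPKM. Of 22 further adhesion receptor genes 21 were in the files, 7 passed the filter on low counts, 1 fell and none rose, beside 8.22% lower and 12.0% higher among all tested genes. The median was -0.69. Adgra3 was the fallen one, from 105 ± 67.4 to 23.0 ± 19.2 CPM (-2.18 ± 0.69, adjusted p = 0.0264), and it no longer passed without normal lung libraries 1 (0.103) or 3 (0.0505) or metastasis libraries 4 (0.0566) or 5 (0.0608), nor within libraries 1 and 2 alone (-1.79, edgeR adjusted p = 0.258). Adgra2, a coreceptor of Wnt7 signals in brain vessels, was at -2.49 ± 1.00 (adjusted p = 0.0831) and Adgrg6, a receptor of myelinating Schwann cells, at 0.23 ± 0.54 (0.813). Adgrb1, Adgrb2, Adgrb3 and Adgrg7 had no counts in any library. Adgre1, the macrophage antigen F4/80, did not pass the filter, with 1 or 2 counts in each normal library and 4, 248, 92, 365 and 177 counts in metastasis libraries 1 to 5.

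Of 16 ligand genes 9 were tested, 3 rose and none fell, beside 12.0% higher and 8.22% lower among all tested genes. The median log2 fold change was 1.25, against 0.06 for all tested genes. Tenm4, a teneurin, rose 78.6-fold, from 0.274 ± 0.111 to 21.7 ± 17.7 CPM (6.30 ± 1.33, adjusted p = 0.00151), but in metastasis library 1 it was at 0.305 CPM, inside the normal range. It did not pass within libraries 1 and 2 alone (6.97, edgeR adjusted p = 0.116). Flrt2, a latrophilin ligand, rose 11.5-fold, from 17.9 ± 14.6 to 206 ± 81.8 CPM (3.53 ± 0.67, adjusted p = 0.000564), with no overlap between groups, and was at 2.99 within libraries 1 and 2 alone and 4.38 within libraries 3 to 5 alone. Col3a1, the collagen bound by Adgrg1, rose 14.6-fold, from 10.4 ± 10.9 to 152 ± 60.7 CPM (3.87 ± 0.78, adjusted p = 0.00102), and is itself one of the fibroblast markers that rose. Its size differed between the sets: normal libraries 1 and 2 were at 1.35 and 0.873 CPM and normal libraries 3 to 5 at 10.5 to 27.8 CPM. The log2 fold change was 7.61 within libraries 1 and 2 alone (edgeR adjusted p = 2.1e-05) and 2.72 within libraries 3 to 5 alone (0.0201). Tgm2, a transglutaminase that also binds Adgrg1, was at -0.05 ± 0.53 (adjusted p = 0.966). Sftpd, surfactant protein D and a ligand of Adgrf5, was not tested and had 0 to 239 counts a library.

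Of 18 genes for G proteins, RhoA signalling and arrestins, all tested, 3 rose and 3 fell, beside 12.0% higher and 8.22% lower among all tested genes, and the median was -0.42 against 0.06. These shares are near the background, so the counts are no result about the list. Within libraries 1 and 2 alone only Gnaz of the 6 passed, and within libraries 3 to 5 alone Gnaq, Gna11 and Arrb2 did. Gnaq, a G protein subunit through which Adgrf5 signals in lung epithelium, fell 4.61-fold, from 522 ± 111 to 113 ± 52.0 CPM (-2.20 ± 0.40, adjusted p = 0.000422), with no overlap. Its relative Gna11 was at -2.44 ± 0.73 (adjusted p = 0.0192; 0.124 without normal lung library 1) and Gnai1, an inhibitory subunit, at -2.84 ± 0.84 (0.0187). Arrb2, an arrestin that ends receptor signals, rose 11.7-fold (3.55 ± 0.96, adjusted p = 0.0102). Gnas, the stimulatory subunit, was at 1.12 ± 0.35 (adjusted p = 0.0269). It no longer passed when normal lung library 1, 2, 3 or 4 or metastasis library 3 was left out (0.0575 to 0.083). Gnaz, a subunit abundant in platelets, was at 3.98 ± 1.31 (adjusted p = 0.0328), on 164 and 64.1 CPM in metastasis libraries 1 and 2 and 0.494 to 4.81 CPM in the other 3. Of the 4 platelet markers, Ppbp, Itga2b and Gp9 were highest in the same libraries (11948 and 2300, 77.6 and 57.3, and 23.9 and 55.9 CPM). Pf4 was highest in metastasis library 3, at 342 CPM against 55.6 and 77.4 CPM in libraries 1 and 2, while Gnaz in library 3 was at 4.81 CPM. Gnaz was at 2.53 (0.205) without metastasis library 1 and at -0.044 (0.988) within libraries 3 to 5 alone. Gna12 and Gna13, which link Adgrg1 to RhoA, were at 0.42 ± 0.86 and 0.14 ± 0.43 (adjusted p = 0.784 and 0.864), and Rhoa at -0.50 ± 0.39 (0.417).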

How the data were processed

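RNA of sorted CD31+/CD45- cells was measured in 10 libraries, 5 per group, with reads of 100 bases. Tools listed in the submitters' processing notes are HTSeq 0.6.1, TopHat2 2.0.13, DESeq2 1.6.3 and Cufflinks 2.2.1, with GRCm38 and mm10 as builds. Which annotation and strand setting were used is not given in the sources used here. Overlapping genes on opposite strands therefore have uncertain counts. The authors deposited unnormalized counts for each gene, and their FPKM values (Cufflinks is named in the notes) are scaled by transcript length and depth. HTSeq's no-feature row held 55.4 to 73.7% of the entries of a library and stayed out of library sizes.

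In R 4.3.3, counts of 24538 genes were filtered with filterByExpr (11823 left), scaled by TMM and compared with edgeR 4.0.16 (quasi-likelihood, robust, no covariate, two-sided). SE was taken as the size of the log2 fold change divided by the root of F. The approximate interval uses it with 8 degrees of freedom, fewer than the test had, and is therefore too wide. CPM uses these scaled libraries. Log2 CPM for ratios and correlations has a prior count of 2. DESeq2 1.42.0, limma 3.58.1 on log2(FPKM + 1) and log2(FPKM + 0.1), other scalings, filters and sets of libraries were alternatives. The fits were tested on simulated counts. Positions are from GENCODE M21 (GRCm38). Figures were drawn with matplotlib 3.10.9. The genes, lists and tests were chosen with earlier results of these data known. Named beside the 8 were every called gene of the other adhesion receptors, the 2 largest called changes each way in the ligand and signalling lists, and the 3 genes most correlated with each receptor; other genes named were chosen after their values were seen. Nothing in the labels says that normal lungs came from separate animals, so p-values measure the spread between these samples.

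Lists of lymphocyte, pericyte, lung epithelium and platelet markers were also summed. Lymphocyte genes had 0 of 1 tested gene higher and sums of 0.459 to 15.0 CPM in normal lung and 0.695 to 20.8 CPM in metastases. Pericyte genes had 1 of 5 lower (11.8 to 53.9 and 12.6 to 95.1 CPM), lung epithelium genes 2 of 5 lower (96.6 to 859 and 25.8 to 185 CPM), and platelet genes 2 of 4 higher (182 to 875 and 669.7 to 12105 CPM).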

Additional observations from a re-analysis of the deposited data

Results flagged for a closer look

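In 3 of 16 groups of 5 libraries a single library lay far from the other 4 by Dixon's criterion, which chance meets in about 1 of 20 groups. Normal lung library 1 had 1499 CPM of Adgrl2, against 1129 to 1235 CPM in the other 4. Normal lung library 5 had 432 CPM of Adgrl3, against 167 to 227 CPM. Metastasis library 3 had 206 CPM of Adgrl3, against 9.10 to 50.9 CPM.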

How the results depend on the processing

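Adgrf5, Adgre5, Adgrl2 and Adgrl4 kept their direction in all 24 alternatives each, and lost their call with endothelial scaling and, for Adgrf5, in libraries 1 and 2 alone. Leaving out 1 library at a time gave -2.49 to -1.81 for Adgrf5, -2.86 to -2.09 for Adgre5, -2.67 to -2.19 for Adgrl2, -2.90 to -2.16 for Adgrl4, -3.13 to -1.68 for Adgrl3, -1.48 to -0.91 for Adgrl1, -0.71 to 0.19 for Adgrg1 and 1.47 to 2.09 for Adgrg3. It left 4 or 5 receptors lower and 0 higher, with 1302 to 1440 genes higher and 792 to 1114 lower.

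The counts of all genes, 1420 higher and 972 lower, became 2369 and 1653 with DESeq2, 6572 and 21 with endothelial scaling, 869 and 453 at a threshold of 0.01 and 487 and 201 in libraries 1 and 2 alone, and 527 were lower without metastasis libraries 4 and 5. Of called genes 59.4% were higher, 67.6% with library totals, which raised the median of all genes to 0.32, 70.8% in libraries 1 and 2 alone and 68.3% without metastasis libraries 4 and 5. DESeq2 called 1 receptor higher. Endothelial scaling called 2 higher and 0 lower, and libraries 1 and 2 alone called 3 lower. Without metastasis libraries 4 and 5, Adgrl3 lost its call (-1.47, edgeR adjusted p = 0.113). With endothelial scaling Adgrl1 (0.81), Adgrl3 (0.051), Adgrg1 (2.29), Adgra3 (0.22) and Gnaq (0.23) changed sign, as did Adgrg1 (0.13) and Gnaz (-0.044) in libraries 3 to 5 alone. Among pairs, Adgrl2 to Adgrl3 changed sign on FPKM (-0.089) and ran from -0.27 to 0.60 with 1 library left out. Adgrl3 to Adgrl4 ran from -0.18 to 0.42, Adgrl2 to Adgrl4 from -0.024 to 0.42 and Adgre5 to Adgrl4 from -0.0079 to 0.46. The causes of these changes were not tested.

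Deviations of same-numbered libraries correlated at 0.000682 to 0.142, and 2 of 5 metastasis libraries correlated best with their own number. With 5 libraries a group, these values cannot show whether the replicate numbers pair the samples or share a batch. With the replicate block Adgrl1 passed (-1.65, edgeR adjusted p = 0.00643), and the other receptors kept their side of the threshold. Gnaz lost its call (2.03, edgeR adjusted p = 0.281). Adgrg3, with 126 to 1759 counts a library, is the receptor with the fewest counts.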
